A study of Mus musculus with 2 samples.

Results

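The cells described here are the T lymphocytes of a spleen preparation made for macrophages: 119 of the 31699 barcodes kept from 2 droplet single-cell libraries of spleen cells captured on magnetic beads coated with antibody to F4/80. F4/80 is a surface protein of tissue macrophages and is not a marker of T lymphocytes. The members were chosen by detected transcripts. A kept barcode had 500 to 5000 detected genes and under 15% mitochondrial UMIs, a UMI being 1 molecule tagged at reverse transcription. A member also had Vcam1 and Spic, both macrophage genes, together under 0.5% of its UMIs, at least 3 of the 8 T lymphocyte genes Cd3e, Cd3d, Cd3g, Trac, Trbc1, Trbc2, Lck and Bcl11b, and at most 1 of the 4 B lymphocyte genes Cd79a, Ms4a1, Ebf1 and Pax5. Levels of these 14 genes selected the cells and are given as a description.

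T lymphocytes recognise antigen through a receptor built from an α and a β chain or from a γ and a δ chain, which signals through the CD3 chains and the kinase LCK. The coreceptors CD4 and CD8 bind MHC class II and class I molecules on the presenting cell. Naive T lymphocytes recirculate through the white pulp of the spleen, guided by the chemokine receptor CCR7, whereas effector, memory and innate-like T lymphocytes carry receptors such as the IL-2 receptor β chain and killer cell lectin-like receptors.

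Each library came from 1 untreated mouse aged 12 to 16 weeks. Both mice were homozygous for the Hbatm1Paz deletion of mouse α-globin and carried the human transgene Tg(HBA-HBBs)41Paz with sickle β-globin. The control mouse, labelled wild-type, had 1 copy of the transgene (Tg/0) and was heterozygous (+/-) for the β-globin deletion Hbbtm1Tow, and did not sickle. The SCD (sickle cell disease) mouse, of the Berkeley model on a mixed genetic background, had the transgene on both chromosomes (Tg/Tg), was Hbbtm1Tow -/- and sickled. Mature erythrocytes had been lysed before the beads were applied, and libraries were made with 10x Genomics 3' v3.1 chemistry.

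The β-globin counts went against the labels. Hbb-bs, an adult mouse β-globin gene, was at 46.1 CPM (UMIs per 1000000) in B lymphocytes of the wild-type-labelled library and at 6527 CPM in those of the SCD-labelled library, whose mouse lacked the gene by its genotype. In the T lymphocytes it was at 29.6 and 1130 CPM, where 2 members held 230 of the 306 UMIs of the SCD-labelled library, and at 287 CPM without them. The libraries are therefore called the wild-type-labelled library and the SCD-labelled library throughout, and every direction between them carries this doubt. Ddx3y, a Y-linked gene, was at 158 and 170 CPM in the T lymphocytes and did not separate the libraries.

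The wild-type-labelled library held 145953464 UMIs in 24144 barcodes, and the SCD-labelled library 73986356 UMIs in 15442 barcodes. Of the 19419 barcodes kept in the former, 66 were members (0.340%, 95% exact binomial interval 0.263 to 0.432%), and of the 12280 kept in the latter, 53 were members (0.432%, 0.324 to 0.564%). The intervals of the shares overlapped. With each cell thinned to 1000 UMIs the shares were 0.147% (0.0968 to 0.214%) and 0.283% (0.196 to 0.396%), and the intervals again overlapped. With 1 mouse per library no test between conditions was possible. All intervals here are 95% exact intervals, Poisson for UMIs, binomial for shares of cells and conditional binomial for ratios. They cover counting error only, so a difference between libraries is one between 2 libraries and not between conditions.

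The members had a median of 3300 UMIs (883 to 16705) in the wild-type-labelled library and of 3411 (1523 to 16574) in the SCD-labelled library, and 303502 and 270712 UMIs in total. Their depth was thus alike. Of the barcodes deposited, 107 occurred in both libraries and 65 were kept in both, but no barcode was a member in both. The barcode of 1 member was also kept in the other library.

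The rule was strict for part of the cells and loose for others. A median of 5 of the 8 T lymphocyte genes was detected per member in the wild-type-labelled library and of 6 in the SCD-labelled library, and 41 members of each had 5 or more. Just inside the threshold, 6 and 5 members had exactly 3 of the genes. Just outside it, 11 and 4 cells that met every other condition had 2. The limit on Vcam1 and Spic left out 5 cells and 1 cell with enough T lymphocyte genes. The lowest share left out was 0.506% of UMIs in the wild-type-labelled library and 0.690% in the other, while the highest share among members was 0.463% and 0.481%. The limit on B lymphocyte genes left out 1 and 7 cells, and 1 further cell of the wild-type-labelled library was past both limits. The filters on genes and mitochondrial UMIs left out 7 and 5.

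B lymphocytes of the same libraries served as the reference. These 1081 and 2258 cells had at least 3 of 6 B lymphocyte genes, among them Cd79a, Cd79b, Ms4a1, Ebf1 and Pax5, at most 1 of the 8 T lymphocyte genes, and a median of 3609 and 3323 UMIs, close to that of the members. Free RNA in the suspension reaches all droplets, so a share of cells with a UMI is printed beside that in B lymphocytes where the gene should be silent.

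The label was checked against 4 markers, of which Cd3e, Cd3g and Trbc2 were in the rule, so that their shares are fixed in part by the choice of cells, and Il7r was not. Cd3e, which encodes the ε chain of CD3, had a UMI in 83.3% of members of the wild-type-labelled library and 71.7% of those of the SCD-labelled library, against 0.0925% and 0.0443% of B lymphocytes. Cd3g was found in 68.2% and 77.4% of members and Trbc2, a constant segment of the receptor β chain, in 74.2% and 77.4%. Il7r, the receptor for the survival cytokine IL-7, was found in 34.8% (23.5 to 47.6%) and 56.6% (42.3 to 70.2%) of members, against 1.11% and 1.02% of B lymphocytes. All 3 Cd3 genes were detected in 24 and 23 members, and no Cd3 gene in 0 and 3. Cd79a was found in 0 and 2 members, Ms4a1 in 2 and 2, and Pax5 had no UMI in any.

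**Figure D1:**
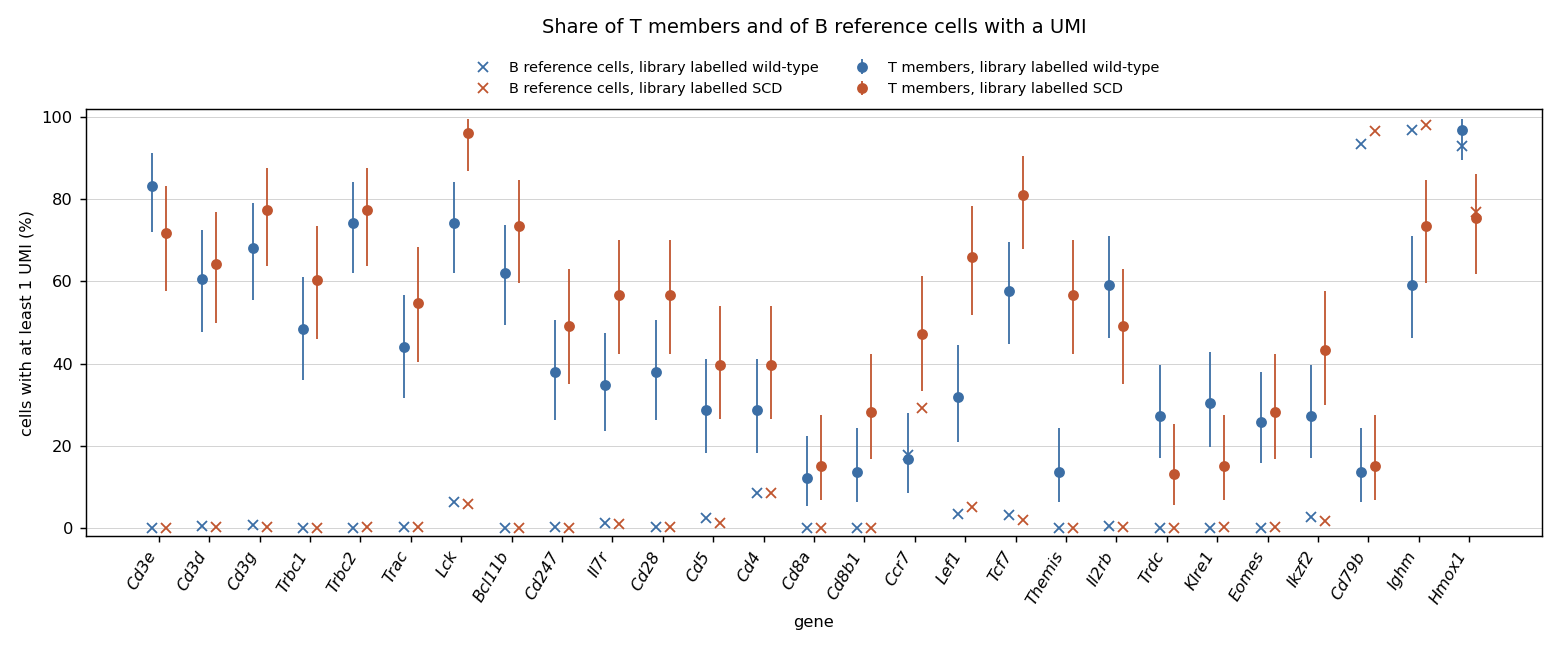
Share of cells with at least 1 UMI (y axis, percent) for genes of the T lymphocyte rule, other lymphocyte genes and Hmox1 (x axis). Circles are T lymphocyte members with 95% exact binomial intervals and crosses B lymphocyte reference cells, in blue for the wild-type-labelled library and orange for the SCD-labelled library. The CD3 and receptor genes, which were used to choose both groups, stand far above the crosses, while Hmox1 and Ighm do not follow cell type in this way.

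The 3 CD3 genes lie together on chromosome 9 of GRCm38.p6. Cd3g (44969572 to 44980431, minus strand) and Cd3d (44981786 to 44987339, plus strand) are read in opposite directions from start sites 1355 bases apart, and Cd3e (44998740 to 45009627, minus strand) follows 11401 bases beyond the end of Cd3d. These positions are from the GENCODE M21 annotation. As these genes chose the members, the 250 bases before their RefSeq start sites are shown, taken from RefSeq for GRCm38.p6. The RefSeq start of Cd3e lies inside the gene as GENCODE gives it, so that 16 bases of its window are within that gene. Capitals mark matches, on either strand, to the letters AGGAAG, the core of sites bound by ETS factors, and CACCTG, an E-box.
Cd3d, chr9:44981536-44981785, plus strand: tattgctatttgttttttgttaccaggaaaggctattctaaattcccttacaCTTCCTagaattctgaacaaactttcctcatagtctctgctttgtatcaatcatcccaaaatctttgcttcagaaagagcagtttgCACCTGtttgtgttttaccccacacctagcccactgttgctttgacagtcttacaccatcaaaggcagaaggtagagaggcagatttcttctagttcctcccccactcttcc
Cd3g, chr9:44980432-44980681, minus strand: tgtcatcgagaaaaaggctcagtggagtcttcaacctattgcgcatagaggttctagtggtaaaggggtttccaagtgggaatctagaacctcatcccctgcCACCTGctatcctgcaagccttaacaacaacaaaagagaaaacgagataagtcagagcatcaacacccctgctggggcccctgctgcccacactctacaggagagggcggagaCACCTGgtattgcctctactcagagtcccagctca
Cd3e, chr9:45009612-45009861, minus strand: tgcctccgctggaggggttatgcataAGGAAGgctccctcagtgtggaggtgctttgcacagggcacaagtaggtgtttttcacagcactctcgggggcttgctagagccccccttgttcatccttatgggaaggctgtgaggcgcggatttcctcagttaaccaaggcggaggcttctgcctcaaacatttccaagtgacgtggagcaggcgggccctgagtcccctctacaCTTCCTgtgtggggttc

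Cd3d had 1 match to AGGAAG and 1 to CACCTG in this window, Cd3g had 2 to CACCTG, and Cd3e had 2 to AGGAAG. Neither the RUNX letters TGTGGT nor the TATA box letters TATAAA occurred in any of the 3. Among 32851 promoters of the same length, 29.5% held AGGAAG, 17.2% CACCTG, 14.05% TGTGGT and 12.4% TATAAA on either strand, so the first 2 are common in promoters at large. A match is a description of the letters and not a site.

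The levels of the CD3 chains had overlapping intervals in the libraries. Cd3e was at 415 CPM (346 to 494) in the members of the wild-type-labelled library and at 403 CPM (331 to 486) in those of the SCD-labelled library, and single members held between 0 and 7 of its UMIs. Cd3g was at 293 and 392 CPM and Cd3d at 214 and 292 CPM. Lck, the proximal kinase, had 339 and 469 CPM, with a log2 ratio of 0.47 (0.08 to 0.86), and had a UMI in 74.2% and 96.2% of members. In B lymphocytes Cd3d was at 1.26 and 0.587 CPM, whereas Lck was at 14.4 and 14.8 CPM.

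Trbc1 was the only one of the 8 T lymphocyte genes of the rule past 2-fold between the libraries. It was at 303 CPM (244 to 372) in the wild-type-labelled library and at 650 CPM (558 to 754) in the SCD-labelled library, a log2 ratio of 1.10 (0.73 to 1.48), and the intervals of the levels did not overlap. For Trbc2 the levels were 458 and 661 CPM, and their log2 ratio 0.53 (0.20 to 0.86). Trbc1 and Trbc2 are near-identical constant segments 6849 bases apart on chromosome 6, so the assignment of reads between them is uncertain. Of the members, 9 and 8 held UMIs of Trbc1 alone, 26 and 17 of Trbc2 alone, 23 and 24 of both, and 8 and 4 of neither. The members with both segments were thus about as many as those with Trbc2 alone.

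The libraries were read from the 3' end, and variable segments were almost unseen. Over all members Trbv segments had 1 and 4 UMIs and Trav segments 1 and 2, in as many cells. No clonal composition can be read from these counts.

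Against B lymphocytes, 5271 genes with at least 20 UMIs in the members were tested. Of these, 242 were at least 2-fold higher in the members of both libraries (4.59%). A further 57 were at least 2-fold lower in both (1.08%), or 114 as means over cells. The minimum was set on the members alone, so genes high in B lymphocytes and nearly silent in the members could not be counted as lower. The imbalance between higher and lower genes is therefore set in part by this minimum and is a description. Gene lists set against the 4.59% were held to the same minimum. Genes were ranked by the smaller of their folds in the 2 libraries among those with at least 50 UMIs in the members of each. The 20 highest held all 8 T lymphocyte genes of the rule, led by Cd3e, Bcl11b, Trbc2 and Trbc1. Their place is set in part by the choice of both groups, since the B lymphocytes could have at most 1 of them. Of genes outside the rule the leading one was Il2rb, the β chain of the receptors for IL-2 and IL-15. It was at 504 CPM (427 to 591) and 417 CPM (344 to 502) in the members against 1.08 and 0.685 CPM in B lymphocytes.

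Il2rb was followed by the membrane protein gene Ms4a4b, at 992 and 1245 CPM against 14.7 and 27.0 CPM. This gene was detected in 93.9% and 98.1% of members, more than any gene of the rule. Il7r was at 283 and 358 CPM against 7.17 and 3.52 CPM. Ikzf2, which encodes the transcription factor Helios, was 37.3-fold (24.1 to 58.9) and 60.4-fold (42.7 to 86.3) higher than in B lymphocytes, and Tcf7, which encodes the T lineage factor TCF1, 34.1-fold (24.9 to 47.1) and 56.1-fold (43.3 to 72.9). The remaining genes outside the rule were Txk, a Tec family kinase, the chemokine gene Ccl5, and Arl4c, Tecpr1, Ms4a6b, Leprotl1 and Emb.

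Further T lymphocyte genes separated the members from B lymphocytes without being in the rule. Of the 16 genes of receptor signalling with at least 20 UMIs, 11 were at least 2-fold higher in both libraries, among them Cd3e of the rule. Of 11 surface receptors and coreceptors 10 were higher, and of 13 transcription factors 6, against 4.59% of all genes tested. The costimulatory receptor Cd28 was at 145 and 214 CPM against 0.359 and 0.685 CPM. Thy1, a classical surface marker of mouse T lymphocytes, had 32 UMIs in each library's members and 0 in all B lymphocytes, at least 196-fold and 403-fold higher when a count of 0 is taken to allow 3 counts. Gata3, a factor of T lineage commitment, had 21 and 29 UMIs in the members against 0 and 1 in all B lymphocytes.

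Ets1, Satb1, Klf2 and Foxp1 are transcription factors shared with B lymphocytes and showed no such gap. Ets1, for example, was at 593 and 831 CPM in the members against 370 and 678 CPM in B lymphocytes. Members of the Gimap family, GTPases of lymphocyte survival, were intermediate. Gimap3 was found in 81.8% and 79.3% of members and 43.9% and 43.5% of B lymphocytes. Of the 8 Gimap genes, 2 were at least 2-fold higher in both libraries, against 4.59% of all genes tested.

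**Figure D2:**
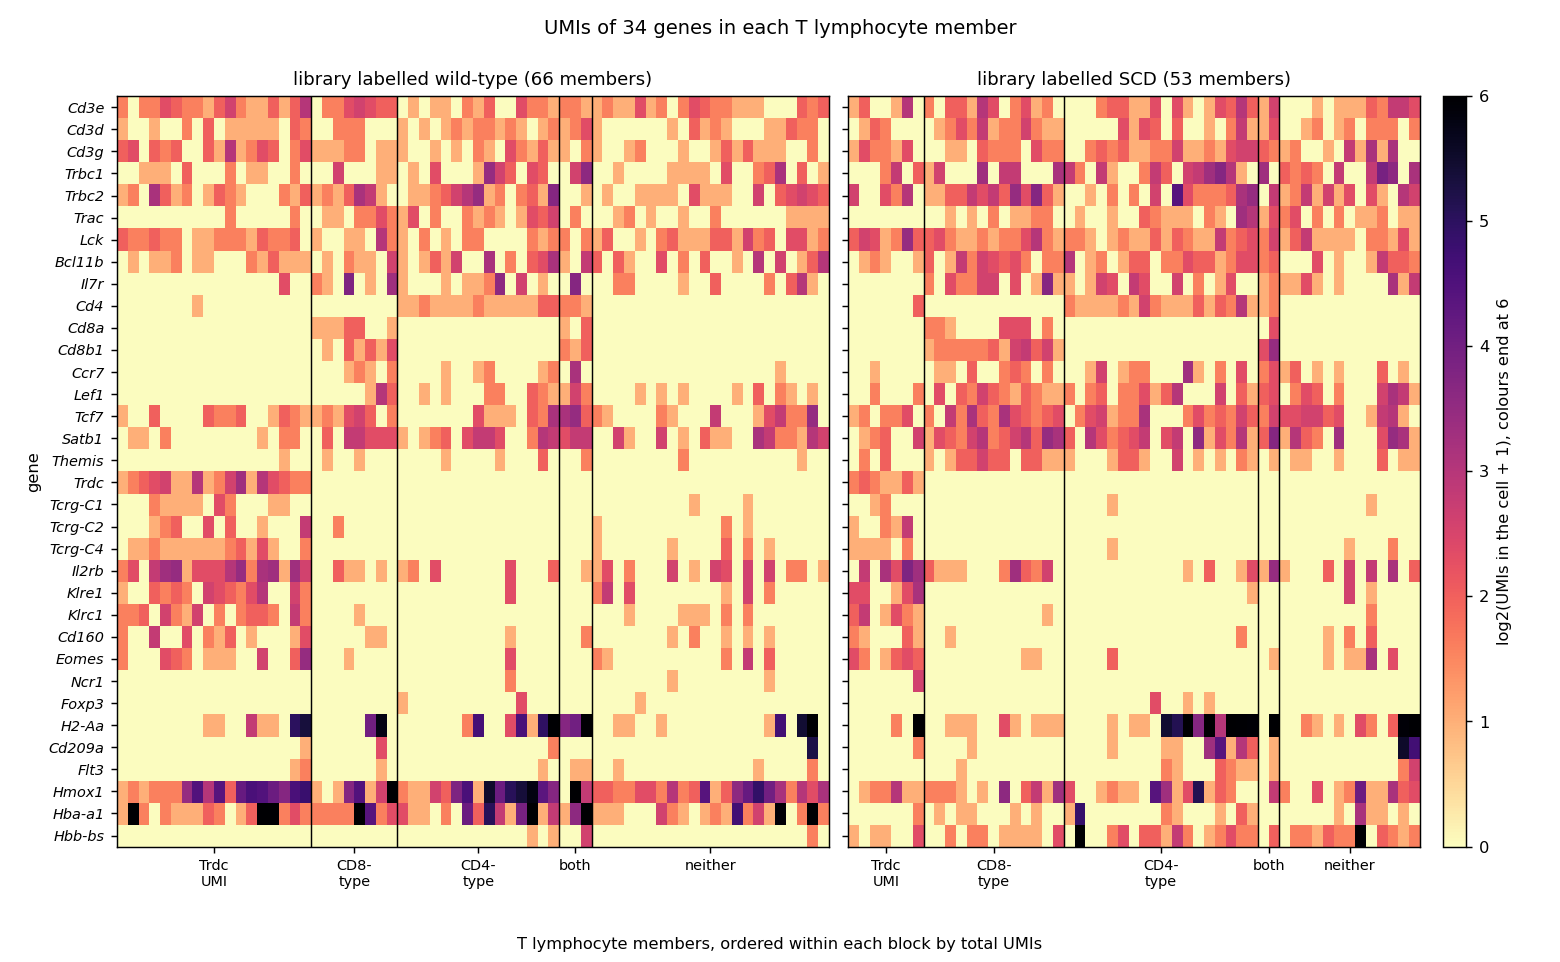
UMIs of selected genes (y axis) in each of the T lymphocyte members (x axis), in blocks by Trdc and coreceptor and ordered by total UMIs, with 66 members of the wild-type-labelled library on the left and 53 of the SCD-labelled library on the right; the colour scale gives log2 of UMIs + 1 per cell and ends at 6. Of the 25 members with a Trdc UMI, 22 have an Il2rb UMI and 18 a Klre1 UMI, and these 25 hold few Lef1 or Ccr7 UMIs. Class II genes fill only part of the columns.

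By coreceptor, 24 of 66 and 32 of 53 members could be typed. Cd4 alone was detected in 16 members of the wild-type-labelled library and 19 of the SCD-labelled library, and Cd8a or Cd8b1 without Cd4 in 8 and 13. These cells are called CD4-type and CD8-type. A further 3 and 2 had both and 39 and 19 had neither. CD8-type cells were 33.3% (15.6 to 55.3%) of the typed members in the wild-type-labelled library and 40.6% (23.7 to 59.4%) in the SCD-labelled library, and the intervals overlapped widely. Among members with under 10 UMIs of the MHC class II gene H2-Aa, 6 and 13 were CD8-type and 12 and 10 CD4-type. In the SCD-labelled library CD8-type cells were then the more numerous. Cd4 was a weak marker here, since 8.42% and 8.50% of B lymphocytes also had a Cd4 UMI, against 28.8% and 39.6% of members. Cd8a or Cd8b1 was found in 0.0925% and 0.133% of B lymphocytes.

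Cd8b1, the β chain of CD8, was at 62.6 CPM (37.7 to 97.8) in all members of the wild-type-labelled library and at 181 CPM (134 to 239) in those of the SCD-labelled library, with a log2 ratio of 1.53 (0.74 to 2.38). It was found in 13.6% and 28.3% of members. Its partner Cd8a was at 46.1 and 85.0 CPM with overlapping intervals, and Cd4 at 89.0 and 155 CPM, also with overlapping intervals.

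Il7r, Bcl2 and Arl4c were at higher levels in CD8-type than in CD4-type members of each library, with part of the counts in single cells. Il7r was at 660 CPM in CD8-type and 264 CPM in CD4-type members of the wild-type-labelled library, and at 707 and 261 CPM in the SCD-labelled library. In the wild-type-labelled library 2 of the 8 CD8-type members held 22 of their 26 Il7r UMIs, and 2 of the 16 CD4-type members held 16 of 23. Without the 2 highest cells of each type the levels were 148 CPM (40.3 to 378) and 96.7 CPM (38.9 to 199), whose intervals overlapped, and in the SCD-labelled library 480.5 and 181 CPM. Without the members with at least 10 UMIs of the class II gene H2-Aa the Il7r levels were 990.5 and 344 CPM, and in the SCD-labelled library 707 and 679 CPM. Bcl2, which protects lymphocytes from apoptosis, was at 737 and 206 CPM in the first library and at 670 and 269 CPM in the second. Of the 29 Bcl2 UMIs of the CD8-type members in the first, 18 were in 2 cells. Without the 2 highest cells of each type Bcl2 was at 345 CPM (172 to 618) and 134 CPM (64.4 to 247). Over all typed members the log2 ratios of CD4-type over CD8-type lay between -1.84 and -1.32 for Il7r and Bcl2, and their intervals did not reach 0. Il7r, Bcl2, Arl4c and Nkg7 were among the 10 genes with the highest ratio of CD8-type over CD4-type in these same cells. Their ratios and intervals are thus set in part by that choice and are a description. Arl4c was lower in CD4-type members to a like degree, at log2 ratios of -1.47 and -1.36. Without members with at least 10 H2-Aa UMIs, Arl4c was at 150 and 436 CPM in CD4-type and CD8-type members of the wild-type-labelled library. In the SCD-labelled library it was then at 556 CPM (329 to 878) and 894 CPM (659 to 1185), and the intervals overlapped in both libraries. Nkg7, a gene of cytotoxic granules, had 8 and 13 UMIs in 4 and 5 CD8-type members. In CD4-type members it had 3 and 12 UMIs, all in 1 cell of each library.

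Rgs2 and Tbc1d4 were higher in CD4-type members of both libraries, but nearly all of their UMIs were in members with class II transcripts. Both were among the 10 genes with the lowest ratio of CD8-type over CD4-type, so this direction was set by the choice of genes. Rgs2 was at 458 against 76.2 CPM in the wild-type-labelled library and 553 against 93.1 CPM in the SCD-labelled library. Tbc1d4 was at 332 against 50.8 CPM and at 482 against 18.6 CPM, the CD8-type levels resting on 2 UMIs and 1 UMI. In the CD4-type members 2 cells held 25 of the 29 Tbc1d4 UMIs of the wild-type-labelled library and 44 of the 61 of the SCD-labelled library, and without them the levels were 55.4 and 160 CPM. The CD4-type members with at least 10 H2-Aa UMIs held 34 of the 40 and 63 of the 70 Rgs2 UMIs, and 27 of the 29 and 56 of the 61 Tbc1d4 UMIs. In the other CD4-type members Rgs2 was at 129 CPM (47.3 to 281) and 216 CPM (86.9 to 445), and Tbc1d4 at 43.0 and 154 CPM, with intervals that overlapped those of CD8-type members. In the SCD-labelled library Cd74, the invariant chain of MHC class II, was at 7204 CPM in CD4-type members and 391 CPM in CD8-type members, and the dendritic cell lectin gene Cd209a at 356 and 18.6 CPM. In the wild-type-labelled library Cd74 was at 2968 and 2489 CPM and Cd209a at 22.9 and 102 CPM. At least 10 H2-Aa UMIs were found in 4 of 16 and 9 of 19 CD4-type members, and in 2 of 8 and 0 of 13 CD8-type members.

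The transcript Trdc, the constant segment of the receptor δ chain, marked a set of members with a distinct profile. It was not in the rule, and the split by Trdc was made after its values had been seen. Trdc had a UMI in 18 of 66 members of the wild-type-labelled library (27.3%, 17.0 to 39.6%) and 7 of 53 of the SCD-labelled library (13.2%, 5.48 to 25.3%), and in 0 and 2 of the B lymphocytes. Its level was 198 CPM (151 to 254) and 48.0 CPM (25.6 to 82.1), a log2 ratio of -2.04 (-3.03 to -1.16), and single members held at most 9 and 3 UMIs. The intervals of the levels did not overlap, whereas those of the shares of members did.

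Of these 25 members, 22 also had a UMI of a constant segment of the γ chain and only 2 had a Cd4, Cd8a or Cd8b1 UMI. A β chain constant segment was nevertheless found in 21 of them. Trac, the α chain constant segment, had 4 and 0 UMIs in members with Trdc, against 51 and 60 in the others. Trdc (54142851 to 54148868) lies within the same chromosome 14 region as Trac (54220521 to 54224206), 71653 bases upstream, and is excised when an α chain is rearranged on that chromosome. The γ chain segments Tcrg-C1, Tcrg-C2 and Tcrg-C4 had 16, 26 and 31 UMIs in the members of the wild-type-labelled library and 5, 10 and 10 in those of the SCD-labelled library. Cd163l1 and Sox13, genes of IL-17-producing γδ T lymphocytes, had no UMI in any member.

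Members with Trdc had high levels of Il2rb and of the killer cell lectin-like receptor genes Klre1 and Klrc1, but not clearly of Klrd1. Il2rb was at 1334 CPM in members with Trdc and 250 CPM in those without in the wild-type-labelled library, and at 1403 and 301 CPM in the SCD-labelled library, log2 ratios of 2.42 (1.93 to 2.91) and 2.22 (1.62 to 2.79). Klre1, a lectin-like receptor of NK and innate-like lymphocytes, was at 604 and 103 CPM, and at 737 and 28.9 CPM. Eomes, the T-box factor of cytotoxic and memory lymphocytes, was at 449 and 81.8 CPM, and at 596 and 86.7 CPM. Klrc1, Cd160 and Cd226, named after their values had been seen, followed the same pattern. Klrc1 was at 562 and 38.8 CPM in the wild-type-labelled library, Cd160 at 337 and 47.4 CPM, and Cd226, the activating receptor DNAM-1, at 632 and 129 CPM. In the SCD-labelled library Klrc1 was at 596 and 12.4 CPM, and Cd160 rested on 7 UMIs in members with Trdc. Klrd1 was at 126 and 112 CPM, and at 281 and 161 CPM, with log2 ratios of 0.18 (-1.10 to 1.31) and 0.80 (-0.51 to 1.92). One of the 7 members with Trdc in the SCD-labelled library had no Cd3 UMI and held 40.65% of their UMIs. Without it Il2rb was at 1832 CPM, Klre1 at 768 CPM and Eomes at 827.5 CPM in the other 6.

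The same members were low in genes of naive αβ T lymphocytes. Cd5, a negative regulator of receptor signalling, had 0 UMIs in members with Trdc in either library, against 29 and 48 in the others. Il7r had 4 and 0 UMIs, against 82 and 97, and its 4 UMIs were in 1 cell. Ccr7 and Lef1 had 0 UMIs in the 18 members of the wild-type-labelled library and 22 and 42 in the rest. In the 7 members of the SCD-labelled library they had 1 and 4 UMIs, against 57 and 100 in the rest. The rest held far more UMIs in total, and the levels there were 35.1 against 235 CPM for Ccr7. For Lef1 they were 140 against 413 CPM, a log2 ratio of -1.56 (-3.46 to -0.16). Cd3g was at 590 CPM in members with Trdc and 202 CPM in those without in the wild-type-labelled library, and at 491 and 380 CPM in the other, where the intervals overlapped. Without the member of the SCD-labelled library that had no Cd3 UMI and 40.65% of the UMIs, Cd3g was at 827.5 CPM in its members with Trdc, with a log2 ratio of 1.12 (0.20 to 1.94) over the rest.

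Genes that NK cells share with innate-like T lymphocytes were detected, and Ncr1 was rare. Of 9 genes of NK and NKT cells with at least 20 UMIs, 6 were at least 2-fold higher than in B lymphocytes in both libraries, against 4.59% of all genes tested. Klre1 had a UMI in 20 and 8 members and Klrd1 in 20 and 20. Ncr1, the NK receptor NKp46, was found in 3 members and 1 member, with 4 and 5 UMIs. The member with Ncr1 in the SCD-labelled library had 1 Trdc UMI, 3 Cd4 UMIs and 64 H2-Aa UMIs, no Cd3 UMI and 11588 UMIs in total. It held all 12 Nkg7 UMIs of the CD4-type members. Over the 11 genes of NK and NKT cells, summed UMIs were 0.164% of the members' UMIs in the wild-type-labelled library and 0.142% in the SCD-labelled library, and the most abundant of them was Tyrobp in the former and Fcer1g in the latter, both also myeloid genes. Gzma, a granzyme, had 0 UMIs in the members of the wild-type-labelled library and 28 in 2 members of the other, 18 of them in the member with Ncr1. Prf1, the gene of perforin, had 6 and 20 UMIs.

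Transcripts of Foxp3, the factor that defines regulatory T lymphocytes, were rare, and at this depth a cell without one may still express the gene. Foxp3 had 6 UMIs in each library's members, in 3 cells each, and 5 of these 6 cells had a Cd4 UMI and none a Cd8 UMI. Ctla4 had 9 and 6 UMIs and Il2ra 14 and 8. Ikzf2, also on this list, was far more abundant, in 27.3% and 43.4% of members.

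Between the libraries most genes differed by less than 2-fold in the members. For each gene with at least 100 UMIs over both libraries the CPM in the members was compared between libraries. Of 980 such genes, 15 were at least 2-fold higher in the SCD-labelled library (1.53%) and 64 at least 2-fold lower (6.53%), with a median log2 ratio over all of 0.06. The counts moved with the choice of members and genes, to 8 higher without the members with Trdc, 41 lower without the members with at least 10 H2-Aa UMIs, and 63 higher and 156 lower with a minimum of 50 UMIs. Of the 15 and 64 genes, 2 and 51 also differed at least 2-fold the same way in B lymphocytes.

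All 9 genes of naive and recirculating cells that had 100 UMIs were above 0, as were 57.0% of all genes tested, and 1, Lef1, was past 2-fold, against 1.53% of all. Their median log2 ratio was 0.63, against 0.48 for the same genes in B lymphocytes. Lef1, a factor of naive T lymphocytes, was at 138 CPM (99.7 to 187) and 384 CPM (314 to 466), a log2 ratio of 1.47 (0.94 to 2.03), against 0.83 in B lymphocytes. Single members held 0 to 7 Lef1 UMIs with a median of 0 in the former library and 0 to 8 with a median of 2 in the latter. Ccr7 had 22 and 58 UMIs, fewer than 100 in all, with 72.5 CPM (45.4 to 110) and 214 CPM (163 to 277) and a log2 ratio of 1.56 (0.83 to 2.34), against 0.83 in B lymphocytes. Tcf7 and Il7r had log2 ratios of 0.52 and 0.34, and both were lower in B lymphocytes of the SCD-labelled library, at -0.19 and -1.03.

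Counted per cell, Lef1 was detected in 21 of 66 members of the wild-type-labelled library (31.8%, 20.9 to 44.4%) and 35 of 53 of the SCD-labelled library (66.04%, 51.7 to 78.5%), against 3.42% and 5.18% of B lymphocytes. Ccr7 was detected in 11 members (16.7%, 8.63 to 27.9%) and 25 members (47.2%, 33.3 to 61.4%), and its intervals did not overlap either. With each cell thinned to 1000 UMIs, which leaves out 2 shallower members, the expected shares were 11.5% and 35.4% for Lef1 and 4.42% and 21.7% for Ccr7. B lymphocytes also express Ccr7, with a UMI in 17.8% and 29.2% of them. Among members with under 10 H2-Aa UMIs, Lef1 was detected in 12 of 52 (23.1%, 12.5 to 36.8%) and 27 of 41 (65.9%, 49.4 to 79.9%). Of the members with Trdc, 0 of 18 and 2 of 7 had a Lef1 UMI, and of those without, 21 of 48 and 33 of 46.

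Themis, which tunes receptor signalling in T lymphocytes, differed past 2-fold, although it had fewer than 100 UMIs in all. It had 13 UMIs in 9 members of the wild-type-labelled library and 60 in 30 members of the SCD-labelled library, 42.8 CPM (22.8 to 73.2) and 222 CPM (169 to 285), a log2 ratio of 2.37 (1.49 to 3.36). It had no UMI in any B lymphocyte. The 6 genes of receptor signalling with at least 100 UMIs (Cd3e, Fyn, Lcp2, Ptpn22, Rasgrp1 and Txk) lay between -0.56 and -0.02 with a median of -0.11, and none was past 2-fold. Lat, the membrane adaptor, was at 122 and 222 CPM.

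Effector and memory genes had no common direction. Of 9 with at least 100 UMIs, 6 were above 0 and 3 below, with a median log2 ratio of 0.21 and none past 2-fold. The median turned to -0.34 as means over cells, -0.59 without doublets and -0.32 without the members with at least 10 H2-Aa UMIs. Ccl5 was lower in the SCD-labelled library, at 586 CPM (504 to 679) and 336 CPM (271 to 413), a log2 ratio of -0.80 (-1.18 to -0.43). In the wild-type-labelled library 1 member held 30.9% of its UMIs. Klre1 was at 221 CPM (171 to 280) and 103 CPM (68.7 to 150), a log2 ratio of -1.09 (-1.78 to -0.44), and Il2rb at 504 and 417 CPM with overlapping intervals. Among members with Trdc Klre1 was at 604 and 737 CPM in the wild-type- and SCD-labelled libraries, and among those without at 103 and 28.9 CPM.

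Cytokine transcripts were all but absent. The 9 cytokine genes on the list had 2 UMIs in the members of the wild-type-labelled library and 9 in those of the SCD-labelled library, and Il4, Il10, Il13 and Il17a had none in either. Ifng had 1 and 0. Cytokine receptors were detected, and 4 of the 6 with at least 100 UMIs were above 0, with a median log2 ratio of 0.29, which turned to -0.27 with a minimum of 200 UMIs, where 1 gene was left. Il2rg, the common γ chain, was at 165 CPM (122 to 217) and 299 CPM (238 to 372). The genes of early lymphocyte development, Rag1, Rag2, Dntt, Ptcra and Cd34, had no UMI in any member, which allows up to 3 counts in each library.

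**Figure D3:**
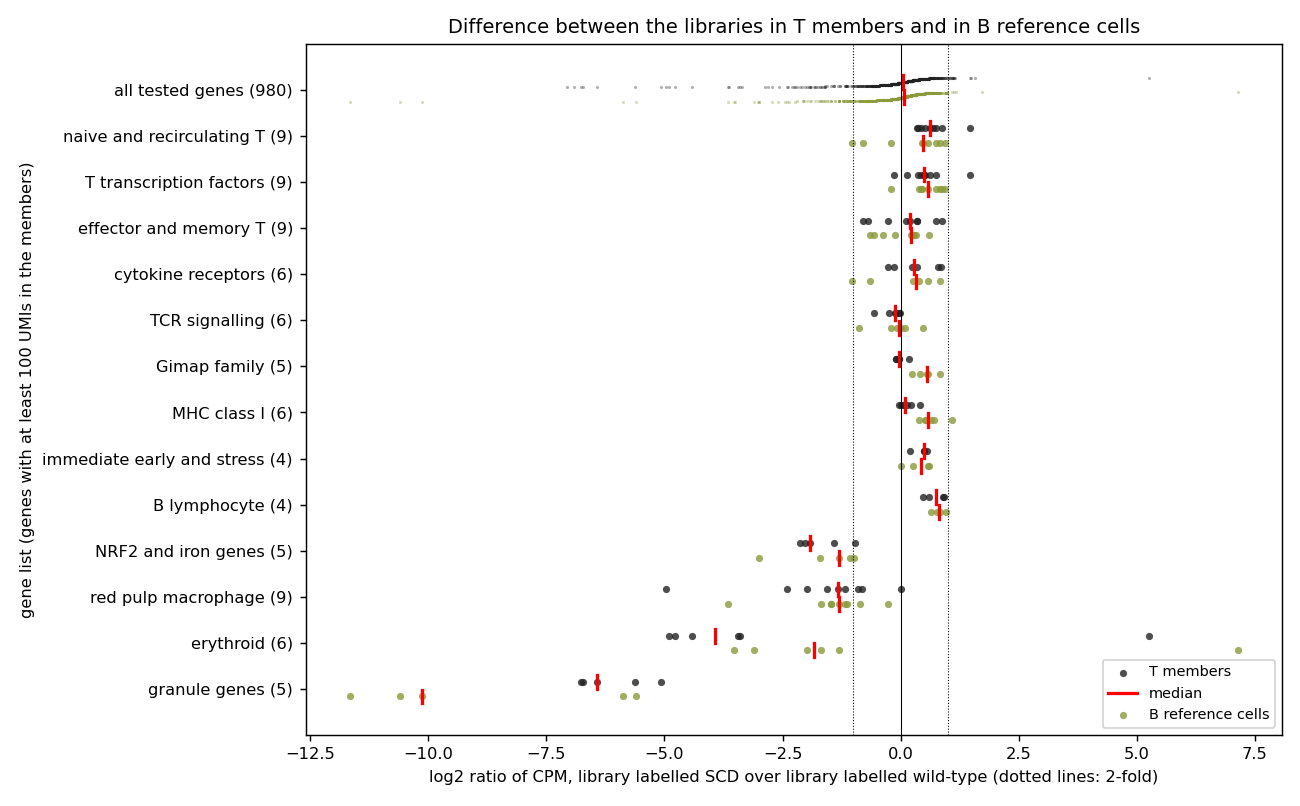
Log2 ratio of CPM, SCD-labelled library over wild-type-labelled library (x axis), for the genes of each list with at least 100 UMIs in the T lymphocyte members (y axis, number of genes in brackets). Dark points are genes in the members, green points the same genes in B lymphocytes, and red bars their medians. The 9 naive genes lie right of 0 in the members, 1 of them past 2-fold. Most macrophage and erythroid genes and all granule genes lie left of 0, with Hbb-bs, at 5.25, far to the right.

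MHC class I and Gimap genes differed less between the libraries in the members than in B lymphocytes. The 6 class I genes with at least 100 UMIs had a median log2 ratio of 0.10 in the members and 0.59 in B lymphocytes, and B2m was at 3130 and 3664 CPM in the members. The 5 Gimap genes had medians of -0.04 and 0.56. These differences between cell types were not tested. No cell cycle gene on the list had 100 UMIs in the members. Mki67 had a UMI in 13 of 66 and 3 of 53 members, and in 27.1% and 4.74% of B lymphocytes. A single member held 54.9% of the members' Mki67 UMIs in the wild-type-labelled library and 88.2% in the SCD-labelled library.

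Of the 10 genes most increased in the SCD-labelled library, Hbb-bs and Cd209a belong to other cell types. Adgre5, which encodes the adhesion receptor CD97, was at 105 and 296 CPM, S100a10 at 184 and 410 CPM and Tagln2 at 142 and 310 CPM. Ccnd1, which encodes cyclin D1, was at 267 and 580 CPM, and in the SCD-labelled library it was found in CD4-type members (126 UMIs) and not in CD8-type members (0 UMIs). In that library at least 10 H2-Aa UMIs were found in 9 of 19 CD4-type and 0 of 13 CD8-type members. Whether Ccnd1 went with coreceptor or with class II was not tested. The remaining genes were Lef1, Trbc1, Dnaja1 and Ccdc88a. The 10 genes most decreased were Tmcc2, Gadd45a, S100a8, S100a9, Ngp, Camp, Ltf, Cd5l, Hba-a1 and Alas2, of which all but Gadd45a are genes of red cell precursors, granulocytes or macrophages.

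Transcripts of macrophages were found in nearly all members of the wild-type-labelled library. Hmox1, the heme oxygenase of red pulp macrophages, had a UMI in 97.0% of them and in 75.5% of members of the SCD-labelled library. B lymphocytes had similar shares, 93.0% and 76.8%. Its level was 2675 CPM (2495 to 2866) in the members of the wild-type-labelled library and 676 CPM (582 to 781) in those of the SCD-labelled library, and 3371 and 1054 CPM in B lymphocytes. Single members ranged from 0 to 66 Hmox1 UMIs (median 6.5) and from 0 to 34 (median 1), so the libraries overlapped cell by cell. The members held less Hmox1 per UMI than B lymphocytes in each library, 0.794-fold (0.739 to 0.852) and 0.641-fold (0.551 to 0.742).

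All 14 red pulp macrophage genes on the list were detected, and Hmox1 was the most abundant in each library. Together they were 0.926% of the members' UMIs in the wild-type-labelled library and 0.320% in the SCD-labelled library, against 1.22% and 0.446% in B lymphocytes and 4.05% and 3.26% in macrophages of the same libraries (8554 and 2624 cells with Vcam1 and Spic at 0.5% of UMIs or more). Of the 9 with at least 100 UMIs, 6 were at least 2-fold lower in the SCD-labelled library, against 6.53% of all genes. Their median log2 ratio was -1.32 in the members, which is the value of Vcam1, and -1.31 in B lymphocytes. Cd5l, a secreted protein of macrophages, fell from 692 CPM to 22.2 CPM in the members and from 827 to 65.9 CPM in B lymphocytes. Vcam1 and Spic, which the rule capped, are among the 14 and the 9, and Vcam1 is among the 6. The summed shares, the count and the median in the members are therefore set in part by the choice of cells.

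Genes of the oxidative stress response and of iron storage followed the macrophage genes. The 5 with at least 100 UMIs were all lower in the SCD-labelled library, 4 of them past 2-fold, against 6.53% of all genes, with a median log2 ratio of -1.91 in the members and -1.31 in B lymphocytes. Ftl1, the ferritin light chain, was at 3542 CPM in the members of the wild-type-labelled library and 942 CPM in those of the SCD-labelled library, and Fth1 at 3733 and 1415 CPM.

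Red cell and granulocyte transcripts were spread unevenly over the members. Hba-a1, a mouse α-globin gene counted although both mice carried its deletion, was at 6198 and 207 CPM in the members and at 8194 and 2088 CPM in B lymphocytes. Erythroid genes were 0.915% and 0.162% of the members' UMIs, and reached 9.44% and 7.60% in the highest member. Granule genes were 0.425% of the members' UMIs in the wild-type-labelled library. Of these 1289 UMIs, 1251 (97.05%) were in 1 member, and without it their share was 0.0128%. Without this member 16 genes were at least 2-fold higher and 61 at least 2-fold lower in the SCD-labelled library.

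**Figure D4:**
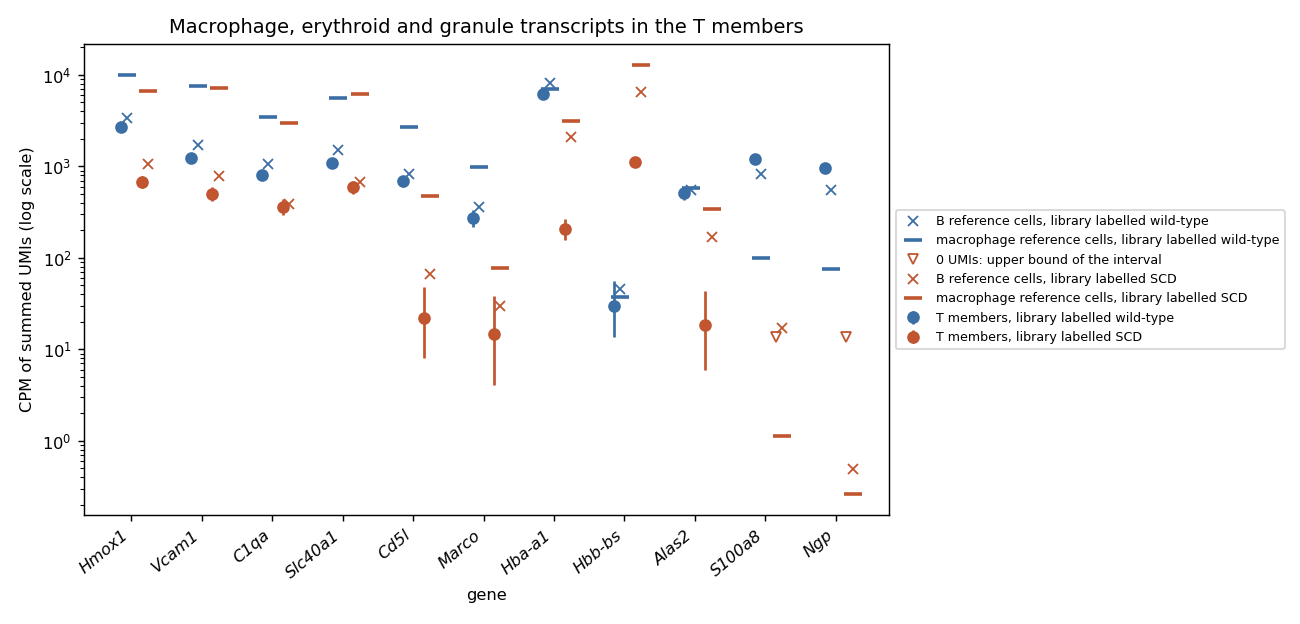
Level in CPM (y axis, log scale) of macrophage, erythroid and granule genes (x axis) in T lymphocyte members (circles, 95% exact Poisson intervals), B lymphocytes (crosses) and macrophages (bars) of the wild-type-labelled library (blue) and SCD (orange); triangles give the upper bound where the members had 0 UMIs. Hmox1, Cd5l and Hba-a1 are lower in the members and the B lymphocytes of the SCD-labelled library than in those of the wild-type-labelled library, and Hbb-bs is higher.

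Class II transcripts set a further group of members apart. At least 10 UMIs of H2-Aa were found in 14 members of the wild-type-labelled library (21.2%, 12.1 to 33.0%) and 12 of the SCD-labelled library (22.6%, 12.3 to 36.2%), while 40 and 22 members had none. This split was made after the values had been seen. The members with 10 or more had a median of 8622 and 10140 UMIs, and the others of 2814 and 2644. Cd74 was at 6033 and 287 CPM in the first and second set of the wild-type-labelled library, and at 9496 and 498 CPM in the SCD-labelled library. Of these members 8 and 10 also had a UMI of Cd209a or Flt3, genes of dendritic cells, against 2 and 4 of the others.

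Since the rule had left out cells with more than 1 of 4 B lymphocyte genes, members with B lymphocyte transcripts were few by construction. Cd79b, which was not among the 4, was at 49.1 CPM in the members with class II and 38.6 CPM in the others of the wild-type-labelled library, and at 23.1 and 42.7 CPM in the SCD-labelled library, on 3 to 7 UMIs each. Igkc, an immunoglobulin light chain gene, had a UMI in 0 and 6 of all members. Levels of the T lymphocyte genes of the rule in the 2 sets are a description, since a shallow cell had to carry them at a high CPM to become a member. Lck was at 196 against 436 CPM in the wild-type-labelled library and at 230 against 690 CPM in the SCD-labelled library, whereas Trac was at 180 against 182 CPM and at 207 against 235 CPM. Tcf7 differed in direction, at 483 against 320 CPM in the wild-type-labelled library, a log2 ratio of 0.59 (0.05 to 1.14), and 184 against 896 CPM in the SCD-labelled library. Scrublet, which scores likeness to simulated doublets, marked 7 and 7 of these members, and 13 and 11 of all members, 19.7% and 20.75% against 10.5% and 13.7% of the libraries. Doublets were left in, and whether the class II transcripts came from a second cell was not tested.

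**Figure D5:**
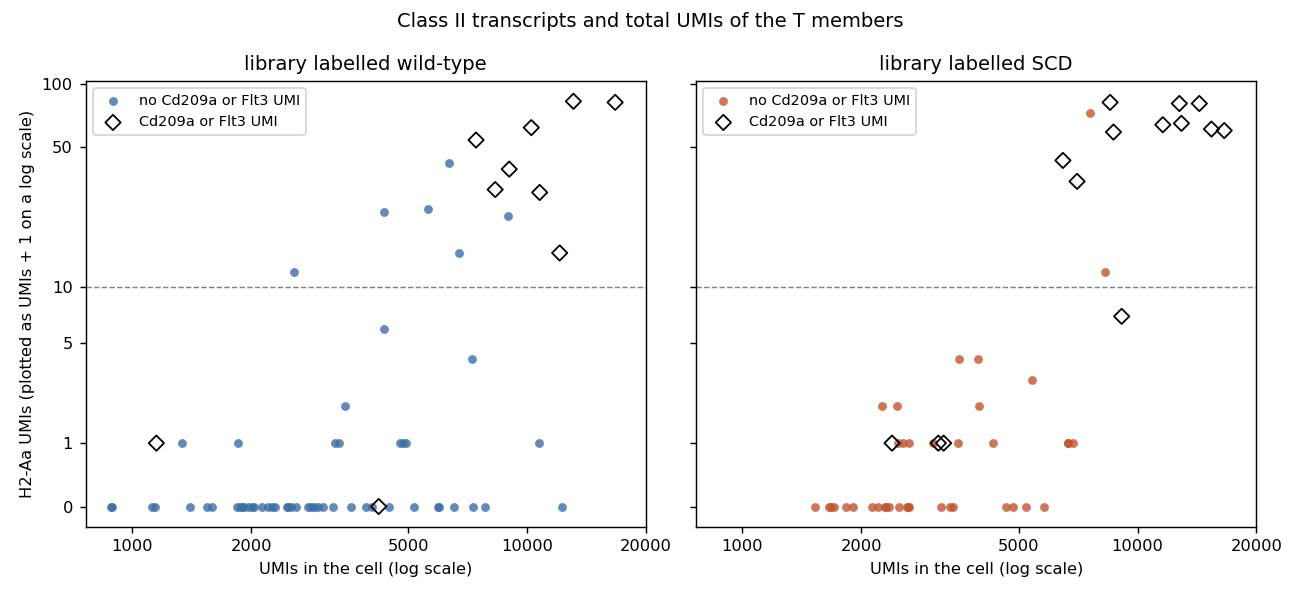
H2-Aa UMIs (y axis, log scale of UMIs + 1) against total UMIs (x axis, log scale) in each T lymphocyte member, 1 panel per library, with diamonds for members that have a Cd209a or Flt3 UMI and a dashed line at 10 UMIs. The 14 and 12 members with at least 10 H2-Aa UMIs lie mostly toward the right, at medians of 8622 and 10140 UMIs.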

How the data were processed

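The authors processed the reads with Cell Ranger (4.0.0 in the submitters' notes and the methods, 3.1.0 in the matrix headers; build GRCm38.p6) and deposited unnormalized UMI counts of each gene in each barcode for 2 libraries of 1 mouse each. Totals were 145953464 and 73986356 UMIs. The members and gene lists were chosen with earlier results of these data known. From the counts, UMIs were summed over members per library and scaled to CPM in Python 3.11.15 with numpy 2.4.6, scipy 1.17.1 and pandas 2.3.3. Ratios carry exact conditional binomial intervals, and 0 UMIs were treated as up to 3. The code was tested on simulated counts. With 1 library per group there is no test. Genes needed 100 UMIs in the members to be counted or ranked between libraries and 20 for ratios over B lymphocytes. Log2 ratios between libraries are also printed for Cd8b1, Trdc, Klre1, Ccr7 and Themis, which had fewer than 100. Groups came from the labels.

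Genes were named by a fixed rule: the 12 T and B lymphocyte genes of the rule, the markers Cd3e, Cd3g, Trbc2 and Il7r, genes of 30 lists with at least 20 UMIs and their defining markers, the 20 with the highest smaller fold over B lymphocytes among genes with 50 UMIs in each library, the 10 highest and 10 lowest ratios between libraries, the 10 highest and lowest between coreceptor types, and globin and sex-linked genes. Klrc1, Cd160 and Cd226 fall outside it, and the splits by Trdc and by H2-Aa were set after values had been seen.

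Doublets were scored with Scrublet in scanpy 1.11.5 and left in. Its threshold marked 0 cells of the wild-type-labelled library, where the highest-scoring cells (2038) were marked instead, and 1679 of the other. Shares were repeated with each cell thinned to 1000 UMIs. Alternatives for the member rule, cell filters, doublets, UMI minimum, scaling and weight of cells were tried, as were some chosen after seeing the data. Ahsp and Xist were not analysed here, and some genes of the lists are not reported here.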

Additional observations from a re-analysis of the deposited data

Results flagged for a closer look

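Of 783 genes with at least 50 UMIs in the members of each library, 12 were higher in T than in B lymphocytes in 1 library and lower in the other, with the intervals of both folds on opposite sides of 1. Each fold is the CPM in the members over that in B lymphocytes, and the difference between the folds was not tested, since there was 1 mouse per library. In 4 genes the members were higher in the wild-type-labelled library and lower in the SCD-labelled library. Lyz2, the lysozyme gene of myeloid cells, had folds of 1.21 and 0.336. St8sia4, a sialyltransferase gene, had 1.36 and 0.795, Tent5c 1.25 and 0.730, and Btg1, an antiproliferative gene, 1.17 and 0.843.

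In the other 8 the direction was the opposite. Dek, a chromatin gene, had folds of 0.5005 and 1.48 in the wild-type- and SCD-labelled libraries, and Pbrm1, a chromatin remodelling gene, 0.737 and 1.42. Eif4a1, a translation initiation gene, had 0.772 and 1.35, Picalm 0.758 and 1.34, and the LIM protein gene Crip1 0.724 and 1.32. Maf, a transcription factor gene of T lymphocytes and macrophages, had 0.804 and 1.31. The ribosomal protein genes Rpl41 and Rps12 had 0.902 and 1.19, and 0.880 and 1.11.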

How the results depend on the processing

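Over 43 results and 425 alternatives none turned a called value. Only list medians and log2 ratios of single genes whose interval did not reach 0 could be marked as turned. Shares and counts of genes could only stay close or move, so the absence of turned values says nothing about them. Of the alternatives of the main values 92 stayed close to them and 16 moved, and of the others 283 and 34. Some list medians that were not called changed sign. Thinned to 1000 UMIs, the member shares were 0.147% and 0.283% in the wild-type- and SCD-labelled libraries. With a minimum of 50 UMIs 63 genes were at least 2-fold higher and 156 lower in the SCD-labelled library, and with 200 there were 3 and 27. Leaving out members with Trdc or with 10 or more H2-Aa UMIs was chosen after seeing the data. Without the former 8 genes were higher. Without the latter 41 were lower, the macrophage median was -1.66, and the macrophage shares were 1.09% and 0.363%. The macrophage median was -1.65 at 200 UMIs. Macrophage shares as medians over cells were 0.634% and 0.186%, and 0.277% in the SCD-labelled library without doublets. As means over cells, 114 of the genes with at least 20 UMIs in the members were lower than in B lymphocytes in both libraries. The median of the effector and memory genes was -0.34 as means over cells, -0.59 without doublets and -0.32 without members with 10 or more H2-Aa UMIs, that of the cytokine receptors -0.27 at 200 UMIs (1 gene), and that of monocyte and dendritic cell genes, 0.45 in the main setting, -2.25 at 200 UMIs and -2.24 without doublets (1 gene each). The cause was not tested. No paired analysis was possible because each group has 1 library, and for the same reason no replicate could be left out. With 119 cells, genes under 100 UMIs were too shallow to rank.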
